A study of Sus scrofa with 24 samples.

Results

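Messenger RNA of 10 enzymes of mitochondrial fatty acid beta oxidation was followed in pigs through 4 stages of development. The genes were ACADVL, ACADL, ACADM, ACADS, HADHA, HADHB, ECI1, ETFA, ETFB and CPT2. They were chosen by name: a probe set counted as a member when the platform annotation gave it a single gene symbol and that symbol was one of the 10. This found 13 probe sets among 23935 tested, and all 10 genes among 6765 genes with a symbol. HADHB had 3 probe sets and ACADVL had 2, and each gene is represented by its brightest probe set (highest mean log2 signal over all arrays) unless another is named.

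The 24 animals were offspring of German Landrace gilts, and all of the gilts had received a high protein diet in gestation. No other diet is among the samples analysed here, so the diet is common to every group and its effect cannot be read from these comparisons. The groups were fetuses at 94 days post conception (94 dpc) and pigs at 1, 28 and 188 days after birth (1 dpn, 28 dpn and 188 dpn), with 6 animals and 6 Affymetrix Porcine arrays each. No stage lay between 94 dpc and 1 dpn, so late fetal change and change at birth cannot be told apart. Offspring of 3 gilts were used per stage, the labels do not say which animals were litter mates, and the tests count all 6 as independent, so p-values may be too small.

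Beta oxidation breaks fatty acids down to acetyl-CoA inside mitochondria in repeated rounds. Long chains enter as carnitine esters and are returned to CoA by CPT2 at the inner membrane. Acyl-CoA dehydrogenases of overlapping chain length preference (ACADVL, ACADL, ACADM and ACADS) take the first oxidation step and pass electrons to the electron transfer flavoprotein, a dimer of ETFA and ETFB. The trifunctional protein, built of HADHA and HADHB, carries out the remaining steps on long chains, and ECI1 shifts double bonds so that unsaturated chains can enter the round. In skeletal muscle and heart the pathway is a main source of energy, in liver it also feeds ketone bodies, and in newborn mammals it meets a diet of fat-rich milk.

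The sample labels name liver and the series title names muscle. Over the arrays the median signal of 12 measured skeletal muscle markers ran from 18728 to 56512, and that of 13 liver plasma protein markers from 22.7 to 13118. By these medians the muscle markers were the brighter in every array, which goes with the series title rather than the labels. The tests assume neither tissue. Some arrays stood apart within their stage. For the control transcript EF1A, 5′ signal over 3′ signal in 1 dpn animals 1 to 3 came to 0.0963 to 0.135, against 0.670 to 0.703 in animals 4 to 6. In 188 dpn animals 1 to 3 the summed signal of the plasma protein markers was 272394, 220588 and 47338, against 1318 to 2458 in animals 4 to 6. Fetus 5 of 94 dpc had a summed macrophage marker signal of 21733, against 2672 to 3532 in the other 5, and the lowest summed skeletal muscle (205924, against 271858 to 298335) and mitochondrial mass marker signal (87787, against 117534 to 134853). Calls of the 10 genes that were lost without 1 dpn animals 1 to 3 (the low 5′ animals) or without 188 dpn animals 1 to 3 (the high plasma protein animals) are named with their values, and in a bulk sample fewer cells of a type and less RNA per cell cannot be told apart.

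Most of the enzymes were lowest at 94 dpc and highest at 1 dpn by stage mean. At 1 dpn 7 of the 10 genes were higher than at 94 dpc and none lower at an adjusted p of 0.05 (limma, Benjamini-Hochberg over all probe sets), where 17.1% of all genes were higher and 20.7% lower. In 6 of the 7 every 1 dpn animal lay above every fetus, as was so for 10.1% of all genes. The median difference of the 10 genes was 1.80 (log2), beside -0.15 over all probe sets. By stage mean, 7 genes were highest at 1 dpn, ACADL and ETFA at 28 dpn and ACADM at 188 dpn, while 8 were lowest at 94 dpc. Of the 7, only ACADVL and HADHA passed the test against 28 dpn. The dimmer probe sets of HADHB and ACADVL averaged higher at 28 dpn than at 1 dpn. Their geometric means were 9051 against 7358 and 8304 against 3021 for HADHB, and 1414 against 1264 for ACADVL. Among these only the dimmest HADHB probe set passed (adjusted p = 0.00221), and not without the 3 low 5′ animals (adjusted p = 0.0737). Without the 3 low 5′ animals 5 genes were highest at 1 dpn, with HADHB and CPT2 highest at 28 dpn, and without the 3 high plasma protein animals ACADM was highest at 28 dpn. Over all stages together 9 of the 10 varied by an F test, as did 65.1% of all genes, and CPT2 did not pass (adjusted p = 0.100).

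**Figure D1:**
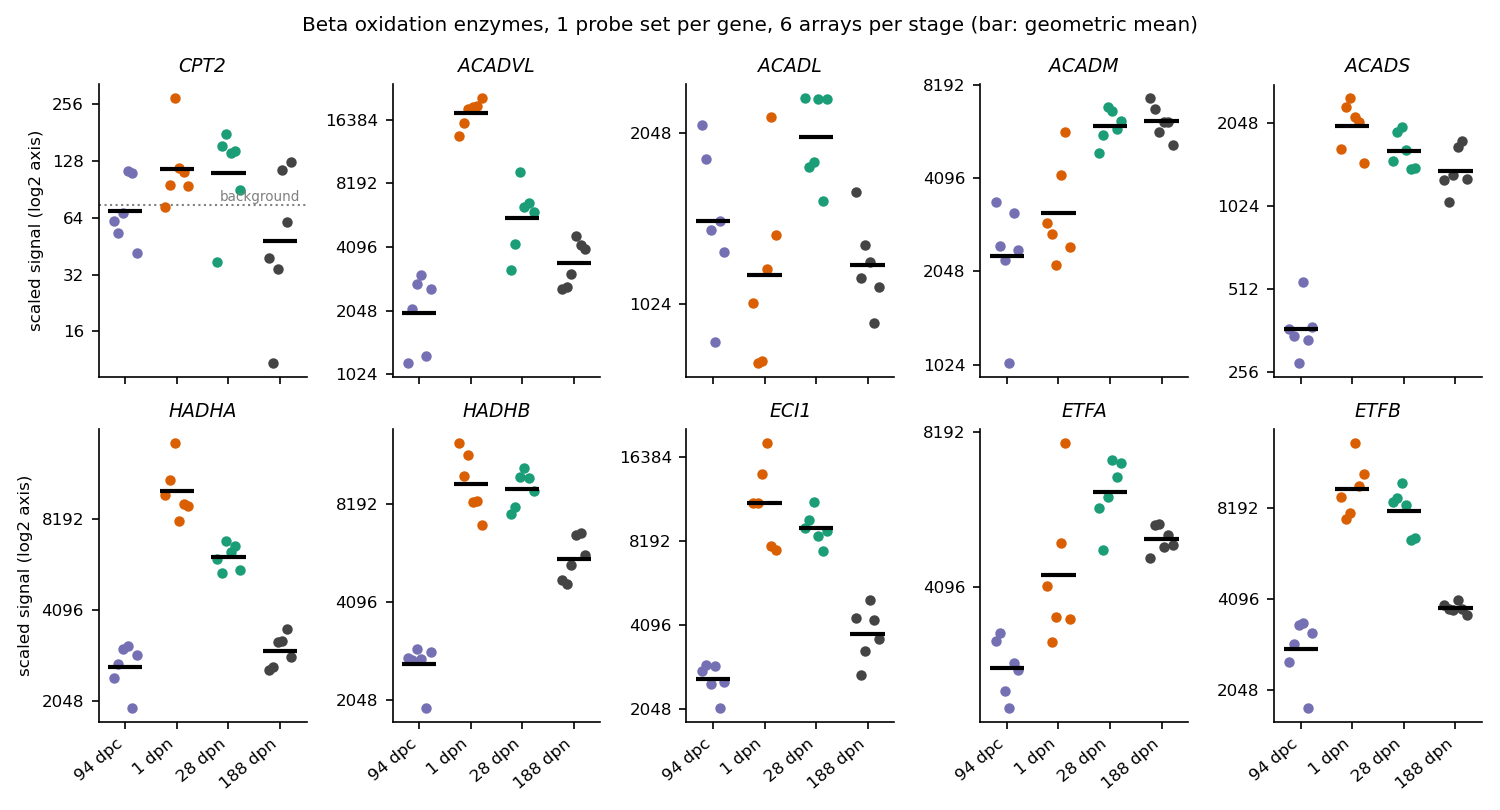
Scaled signal (log2 axis) of each of the 10 genes in every array, by stage from 94 dpc to 188 dpn, with 6 arrays per stage and a bar at their geometric mean. For ACADVL, ACADS, HADHA, HADHB, ECI1 and ETFB all 1 dpn points lie above all 94 dpc points, and for CPT2 many points lie near the dotted background level of 74.7.

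After birth the calls at 28 dpn went both ways, and those at 188 dpn went down. At 28 dpn 3 of the 10 (ACADL, ACADM and ETFA) were higher and 2 (ACADVL and HADHA) lower than at 1 dpn, with 13.3% of all genes higher and 13.4% lower. Without the 3 low 5′ animals, none was higher and the same 2 were lower, where the lower ACADVL rests on 1 of its 2 probe sets. At 188 dpn 5 genes (ACADL, HADHA, HADHB, ECI1 and ETFB) were lower than at 28 dpn and none higher, where 14.3% of all genes were lower and 6.16% higher. The median of the 10 was -0.73 in that step, beside -0.18 over all probe sets. Leaving out the 3 high plasma protein animals kept 3 of those 5 calls (HADHA, ECI1 and ETFB).

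Scaling moves the background of these counts. With each array centred on its median log2 signal, the median difference of all probe sets for 1 dpn against 94 dpc became 0.17, and 59.2% of all called probe sets were higher at 1 dpn, in place of 32.8% as deposited and 47.7% after quantile normalization. For 188 dpn against 28 dpn that share was 62.9% with centring, 42.0% after quantile normalization and 28.2% as deposited. The 10 genes gave 8 higher and 0 lower at 1 dpn with centring and 6 higher and 0 lower with quantile normalization. Their counts for 188 dpn against 28 dpn were 3 lower with centring and 4 lower with quantile normalization, and none higher in either.

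**Figure D2:**
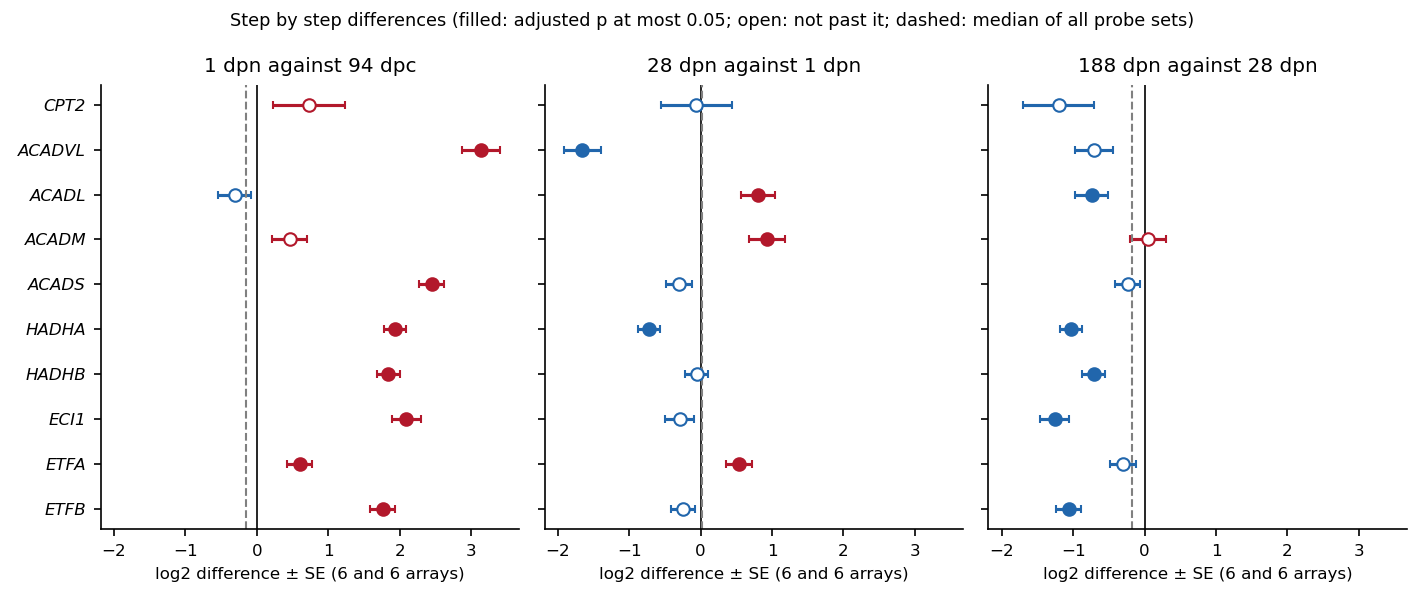
Log2 differences with standard errors of the 10 genes in each step between neighbouring stages, 6 arrays on each side. Filled points passed an adjusted p of 0.05, and the dashed line is the median of all probe sets, -0.15, 0.02 and -0.18 from left to right. At 1 dpn 7 filled points lie to the right of 0, and at 188 dpn 5 lie to the left.

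CPT2, which returns imported acylcarnitines to CoA esters, was dim. Its signal was 41.5, 64.7 and 114 (lowest, median and highest of 6) at 94 dpc, 73.1, 104 and 278 at 1 dpn, 37.3, 144 and 179 at 28 dpn, and 10.8, 50.2 and 126 at 188 dpn. All stages overlapped, and 10 of its 24 values lay under the background signal of 74.7, the 95th percentile of 17 Tag control probe sets. The other 9 genes were above that level in all 24 arrays. None of the 6 comparisons of CPT2 passed, with the smallest adjusted p at 0.0546 for 188 dpn against 1 dpn (-1.26 ± 0.50, SE).

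ACADVL, the dehydrogenase for very long chains, had a signal of 1151, 2329 and 3014 at 94 dpc, 13726, 18726 and 20864 at 1 dpn, 3181, 6150.4 and 9279 at 28 dpn, and 2604, 3517 and 4602 at 188 dpn. The 1 dpn values overlapped with no other stage. They were 8.84-fold higher than at 94 dpc (3.14 ± 0.26, log2 difference ± SE, adjusted p = 1.89e-08). The 28 dpn values were 3.15-fold lower than at 1 dpn (-1.65 ± 0.26, adjusted p = 0.000128). With the mean of its 2 probe sets these differences were 2.12 ± 0.26 (adjusted p = 2.15e-06) and -0.75 ± 0.26 (adjusted p = 0.0447), so the 8.84-fold rests on 1 probe set. At 188 dpn and 28 dpn the ranges overlapped and the difference of -0.71 ± 0.26 did not pass (adjusted p = 0.0766), while with the probe set mean it did (-0.78 ± 0.26, adjusted p = 0.0432).

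ACADS, the dehydrogenase for short chains, had a signal of 276, 358 and 545 at 94 dpc, 1472, 2105 and 2529 at 1 dpn, 1400.4, 1567 and 1989.6 at 28 dpn, and 1057, 1307 and 1767 at 188 dpn. Every animal after birth lay above every fetus, while the 3 stages after birth overlapped with their neighbours. At 1 dpn ACADS was 5.46-fold higher than at 94 dpc (2.45 ± 0.18, adjusted p = 2.74e-09). Neither later step passed, but 188 dpn was lower than 1 dpn over the whole span (-0.54 ± 0.18, adjusted p = 0.0221). That call was lost without the 3 low 5′ animals (-0.44 ± 0.21, adjusted p = 0.136) and without the 3 high plasma protein animals (-0.36 ± 0.22, adjusted p = 0.266). It was also lost without 1 dpn animal 3 (adjusted p = 0.0554) or 188 dpn animal 2 (adjusted p = 0.0603).

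ACADM, which acts on medium chains, followed another course. Its signal was 1033, 2437 and 3436 at 94 dpc, 2145, 2807 and 5767 at 1 dpn, 4949.8, 6094 and 6965 at 28 dpn, and 5229.9, 6202 and 7437 at 188 dpn. The first 2 stages overlapped and so did the last 2. The difference at 1 dpn against 94 dpc was 0.46 ± 0.25 (adjusted p = 0.179), and at 28 dpn ACADM was 1.91-fold higher than at 1 dpn (0.93 ± 0.25, adjusted p = 0.0102). Without the 3 low 5′ animals this step was 0.63 ± 0.30 and did not pass (adjusted p = 0.184). Against 94 dpc the 188 dpn animals were 2.71-fold higher (1.44 ± 0.25, adjusted p = 6.49e-05), with no overlap.

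ACADL, the dehydrogenase for long chains, showed no higher signal at 1 dpn than at 94 dpc. Its signal was 879, 1411 and 2118 at 94 dpc, 807, 1106 and 2187 at 1 dpn, 1558, 2085 and 2361 at 28 dpn, and 949, 1178 and 1611 at 188 dpn. All neighbouring stages overlapped. The 1 dpn difference was -0.31 ± 0.23 (adjusted p = 0.346). At 28 dpn it was higher than at 1 dpn (0.80 ± 0.23, adjusted p = 0.0174), and at 188 dpn lower than at 28 dpn (-0.74 ± 0.23, adjusted p = 0.0355). The rise was lost without the 3 low 5′ animals (0.41 ± 0.26, adjusted p = 0.342), and the fall did not pass without the 3 high plasma protein animals (-0.89 ± 0.30, adjusted p = 0.0708). The fall was also lost without any 1 of 188 dpn animals 2, 4, 5 and 6 or 28 dpn animals 1, 4 and 6 (adjusted p between 0.0543 and 0.0770).

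HADHA and HADHB form the trifunctional protein, HADHA with the hydratase and long chain hydroxyacyl-CoA dehydrogenase activities and HADHB with the thiolase. The signal of HADHA was 1935, 2813 and 3118 at 94 dpc, 8072, 9509 and 14664 at 1 dpn, 5444, 6194 and 6955 at 28 dpn, and 2587, 3039 and 3545 at 188 dpn. HADHB had 1929, 2741 and 2935 at 94 dpc, 7066, 9149.7 and 12622 at 1 dpn, 7616, 9395 and 10588 at 28 dpn, and 4649, 5519 and 6655 at 188 dpn. In both genes the 1 dpn animals lay above all fetuses and the 188 dpn animals below all 28 dpn animals.

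Both were higher at 1 dpn than at 94 dpc, HADHA by 1.93 ± 0.15 (adjusted p = 1.04e-08) and HADHB by 1.84 ± 0.16 (adjusted p = 2.72e-08). With the mean of its 3 probe sets the HADHB difference was 1.05 ± 0.18 (adjusted p = 9.98e-05). HADHA was then lower at 28 dpn than at 1 dpn, with no overlap (-0.72 ± 0.15, adjusted p = 0.00189). HADHB differed by -0.06 ± 0.16 in that step (adjusted p = 0.857), and by 0.57 with that mean (adjusted p = 0.0270). At 188 dpn HADHA was lower than at 28 dpn (-1.04 ± 0.15, adjusted p = 7.70e-05), as was HADHB (-0.71 ± 0.16, adjusted p = 0.00385). The HADHB call did not pass without the 3 high plasma protein animals (-0.53 ± 0.20, adjusted p = 0.114). Over the whole span, at 188 dpn against 94 dpc, HADHB was 2.11-fold higher (1.08 ± 0.16, adjusted p = 9.12e-06), while HADHA was at 0.17 ± 0.15 with overlapping ranges (adjusted p = 0.406).

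ECI1, the isomerase for unsaturated chains, had a signal of 2068, 2688 and 2942 at 94 dpc, 7584, 11221 and 18412 at 1 dpn, 7538, 9041 and 11292 at 28 dpn, and 2709, 3971 and 5047 at 188 dpn. The 1 dpn and 28 dpn animals overlapped with each other and with neither of the other stages. ECI1 was 4.27-fold higher at 1 dpn than at 94 dpc (2.09 ± 0.20, adjusted p = 9.22e-08). At 188 dpn it was 2.39-fold lower than at 28 dpn (-1.26 ± 0.20, adjusted p = 0.000148).

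ETFA and ETFB are the subunits of the flavoprotein that collects electrons from the dehydrogenases. The signal of ETFB was 1784, 3033 and 3418 at 94 dpc, 7542, 9290.2 and 13454 at 1 dpn, 6408, 8483 and 9881 at 28 dpn, and 3624, 3798 and 4068 at 188 dpn. ETFA had 2371, 2858 and 3320.4 at 94 dpc, 3190.3, 3842 and 7821 at 1 dpn, 4827, 6422 and 7243 at 28 dpn, and 4666, 5057 and 5430.2 at 188 dpn. ETFB stood highest at 1 and 28 dpn, whose ranges overlapped, and its 188 dpn animals lay below both and above all fetuses.

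ETFB was 3.39-fold higher at 1 dpn than at 94 dpc (1.76 ± 0.17, adjusted p = 1.33e-07), and 2.09-fold lower at 188 dpn than at 28 dpn (-1.06 ± 0.17, adjusted p = 0.000180). ETFA was 1.52-fold higher at 1 dpn with overlapping ranges (0.60 ± 0.18, adjusted p = 0.0127). That call was lost with quantile normalization (0.41 ± 0.18, adjusted p = 0.0933) and with only the 2 stages compared in the fit (adjusted p = 0.0795). A further step up at 28 dpn (0.54 ± 0.18, adjusted p = 0.0357) did not pass without the 3 low 5′ animals (0.28 ± 0.20, adjusted p = 0.417). It was also lost without the 3 high plasma protein animals, whose stage it does not involve (adjusted p = 0.0551), and without any 1 of 1 dpn animals 1, 2, 3 and 6 or 28 dpn animals 3 to 6 (adjusted p between 0.0526 and 0.0910). ETFA at 188 dpn differed from 28 dpn by -0.30 ± 0.18 (adjusted p = 0.300).

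Comparisons across more than 1 step share arrays with those above. At 28 dpn 8 of the 10 genes were higher than at 94 dpc and none lower (16.7% and 20.2% of all genes), all 8 without overlap (14.5% of all genes), and ACADL and CPT2 did not pass. At 188 dpn 7 were higher than at 94 dpc and none lower (19.9% and 30.2% of all genes), with ACADL, HADHA and CPT2 not past the threshold. That count was 4 without 94 dpc animal 5, the fetus with the high macrophage marker signal, and also 4 without 188 dpn animal 4. Without the 3 high plasma protein animals it was 6, with ETFB lost (0.45 ± 0.23, adjusted p = 0.142), and with the mean of probe sets it was 6, with ACADVL lost (0.59 ± 0.26, adjusted p = 0.0737).

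Against 1 dpn the 188 dpn animals were lower in 6 genes and higher in ACADM (27.5% and 17.4% of all genes). Without the 3 low 5′ animals the count was 5 lower and 0 higher, and it was the same 5 and 0 without the 3 high plasma protein animals. ACADS and ACADM were the genes lost in both cases, with ACADM at 0.68 ± 0.30 without the low 5′ animals (adjusted p = 0.101) and 0.89 ± 0.33 without the high plasma protein animals (adjusted p = 0.0509). ACADVL differed by -2.37 ± 0.26 (adjusted p = 3.66e-07) with its brighter probe set and by -1.53 ± 0.26 (adjusted p = 6.52e-05) with the mean of both. HADHB, lower with its brightest probe set, did not pass with the mean of its 3 (-0.25 ± 0.18, adjusted p = 0.309).

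Partner enzymes were also compared within each array, as the log2 difference of a pair, which any scaling factor of an array leaves unchanged. The pairs were named with the genes' courses known. Exact two-sided permutation tests of 4 pairs in 6 comparisons gave 24 tests, of which 15 passed an adjusted p of 0.05 (Benjamini-Hochberg over the 24). The smallest p that 6 against 6 arrays can give is 0.00216. The difference between pair members has no meaning as a level, since probe sets differ in brightness, and only its change over stages is reported.

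ACADVL less ACADL was 3.45 higher at 1 dpn than at 94 dpc (exact permutation test, adjusted p = 0.00519) and 2.46 lower at 28 dpn than at 1 dpn (-2.46, adjusted p = 0.00519). With the mean of the 2 ACADVL probe sets these changes were 2.43 and -1.55 (exact test, adjusted p = 0.00472 in both). ACADS less ACADM was 1.99 higher at 1 dpn than at 94 dpc (exact test, adjusted p = 0.0111), and changed by -1.24 at 28 dpn against 1 dpn (adjusted p = 0.00519). ETFB less ETFA was 1.16 higher at 1 dpn than at 94 dpc (exact test, adjusted p = 0.0111), and changed by -0.78 at 28 dpn (adjusted p = 0.0277) and by -0.76 at 188 dpn against 28 dpn (adjusted p = 0.00519). In each of these 3 pairs the short or very long chain enzyme or ETFB gained on its partner between 94 dpc and 1 dpn and lost ground by 28 dpn. With the 3 low 5′ animals left out, the gains of ACADS (1.59, adjusted p = 0.0659) and ETFB (1.13, adjusted p = 0.0797) and the loss of ETFB at 28 dpn (-0.76, adjusted p = 0.101) kept their direction and did not pass. Leaving out 3 arrays also raises the smallest p that this test can give, so the lost calls alone do not show a part of those animals. The loss of ETFB at 28 dpn also did not pass without 1 dpn animal 4 or without animal 6 (adjusted p = 0.0519 in both).

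For HADHA less HADHB the result at 1 dpn against 94 dpc depended on the HADHB probe set. With the brightest, the change at 1 dpn against 94 dpc was 0.09 (exact permutation test, adjusted p = 0.508). It was -0.66 at 28 dpn against 1 dpn and -0.33 at 188 dpn against 28 dpn (adjusted p = 0.00866 in both). At 188 dpn against 94 dpc it was -0.90 (adjusted p = 0.00519), with every 188 dpn animal below every fetus. With the mean of the 3 HADHB probe sets HADHA gained 0.87 on HADHB at 1 dpn against 94 dpc (exact test, adjusted p = 0.00472). The later changes were then -1.29 at 28 dpn against 1 dpn (adjusted p = 0.00472), -0.22 at 188 dpn against 28 dpn, which did not pass (adjusted p = 0.0552), and -0.63 at 188 dpn against 94 dpc (adjusted p = 0.00472). That mean includes the dimmest HADHB probe set, which lay below every fetus in the low 5′ animals. HADHA was higher in those animals than in the rest of 1 dpn. Their part in these changes was not tested.

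**Figure D3:**
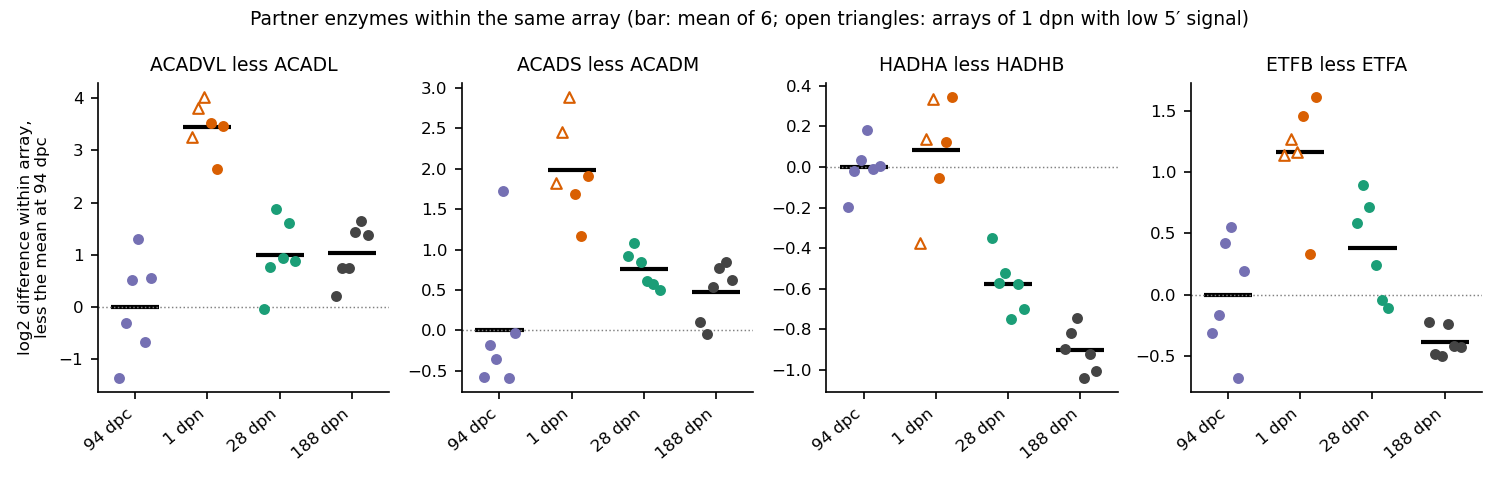
Log2 difference of 4 pairs of enzymes within each array, less its mean at 94 dpc, by stage with 6 arrays each and a bar at the mean. Open triangles are the low 5′ animals of 1 dpn. ACADVL less ACADL is 3.45 above its 94 dpc mean at 1 dpn, and HADHA less HADHB is 0.90 below at 188 dpn, each gene by its brightest probe set.

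Probe sets of 1 gene did not all give the same course. The 3 probe sets of HADHB parted at 1 dpn. The brightest is the one used above, and the second was also higher at 1 dpn than at 94 dpc (1.30 ± 0.19, adjusted p = 2.51e-05). The third, the dimmest, had 1459, 1466 and 1898 in 1 dpn animals 1 to 3 and 6498, 6637 and 4344 in animals 4 to 6, against 2229 to 3263 in the fetuses. Animals 1 to 3 lay below every fetus and animals 4 to 6 above. Its difference was 0.02 ± 0.32 (adjusted p = 0.972) with all arrays and 0.94 ± 0.19 (adjusted p = 0.00130) without those 3.

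The second, dimmer probe set of ACADVL was higher at 1 dpn than at 94 dpc by 1.09 ± 0.28 (adjusted p = 0.00521), less than the 3.14 of the brighter one. At 1 dpn it had 678, 1061 and 913 in animals 1 to 3 and 1868, 1874 and 1774 in animals 4 to 6. Its 28 dpn step was 0.16 ± 0.28 (adjusted p = 0.752), where the brighter probe set was lower by 1.65 (-1.65), so the lower ACADVL at 28 dpn rests on 1 of its 2 probe sets. Of the 13 probe sets, ACADL, ETFB, both of ACADVL and the third of HADHB were lower in all 3 low 5′ animals than in the other 3 animals of 1 dpn, and HADHA and the brightest of HADHB were higher in all. Among all probe sets 10% were lower and 10.3% higher in that split. Whether the 5′ signal has a part in these differences was not tested.

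**Figure D4:**
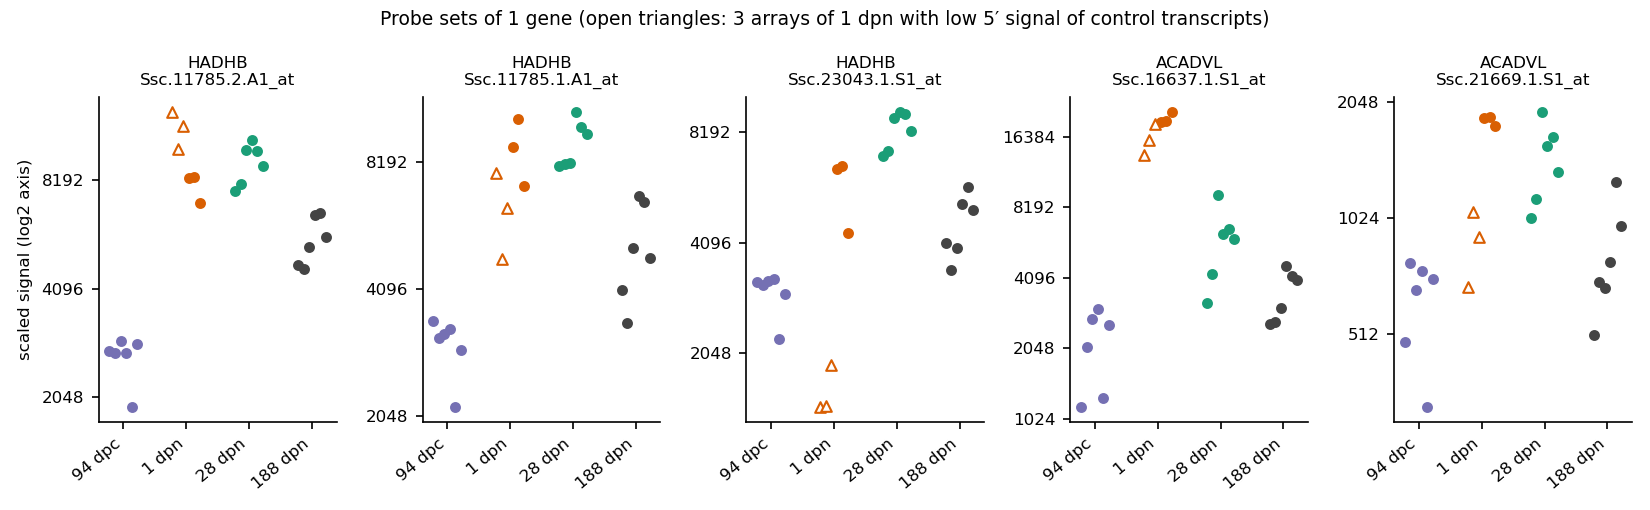
Scaled signal (log2 axis) of the 3 probe sets of HADHB and the 2 of ACADVL in every array by stage. Open triangles are 1 dpn animals 1 to 3, the low 5′ animals. For the third probe set of HADHB the triangles lie at 1459 to 1898 and the other 1 dpn arrays at 4344 to 6637.

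At 188 dpn the high plasma protein animals also stood apart for some members. ACADVL had 2604 to 3037 in animals 1 to 3, against 3997 to 4602 in animals 4 to 6. HADHB had 4649 to 5331 against 5706 to 6655, and CPT2 had 10.8 to 39.2 against 61.1 to 126. The second probe set of ACADVL and the third of HADHB were lower in animals 1 to 3 as well, and no member probe set was higher in all 3. Of all probe sets 8.34% were lower and 5.78% higher in that split. The albumin gene ALB spanned 80.1 to 56933 over the 188 dpn arrays. The part of these arrays in the lower signal at 188 dpn was not tested beyond the counts without them.

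Other genes of fatty acid oxidation were read from lists written with earlier results of these arrays known. Of 12 measured genes of other mitochondrial beta oxidation steps, 6 were higher at 1 dpn than at 94 dpc and none lower (17.1% and 20.7% of all genes, median 0.82). ACAA2, the medium chain thiolase, averaged 5072 at 1 dpn against 1487 at 94 dpc as a geometric mean (1.77 ± 0.22, adjusted p = 2.35e-06). HADH, the hydroxyacyl-CoA dehydrogenase for shorter chains, rose by 0.97 ± 0.14 (adjusted p = 2.50e-05), and ETFDH, which takes electrons from the flavoprotein to ubiquinone, by 1.19 ± 0.20 (adjusted p = 0.000115). With the mean of its probe sets ETFDH did not pass (0.48 ± 0.25, adjusted p = 0.157). ECHS1, the short chain hydratase, had 8597 to 17652 at 1 dpn, against 6605 to 10193 at 94 dpc, and did not pass. At 28 dpn 1 of the 12 was higher and 2 lower than at 1 dpn, and at 188 dpn 1 was lower than at 28 dpn, where 13.3% of all genes were higher and 13.4% lower in the first of these steps and 14.3% lower in the second.

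Genes of fatty acid entry differed among themselves. Of 6 carnitine transport genes 4 were higher at 1 dpn than at 94 dpc (17.1% of all genes, median 1.33). At 188 dpn 3 of the 6 were lower than at 28 dpn (14.3% of all genes). That last count was 1 both after quantile normalization and with median centring. CPT1B, the muscle form of the enzyme that makes acylcarnitines, had 4876, 6102 and 8066 at 1 dpn, against 486, 871 and 1145 at 94 dpc (2.89 ± 0.23, adjusted p = 8.99e-09). It was lower at 28 dpn than at 1 dpn (-1.19 ± 0.23, adjusted p = 0.000739) and lower again at 188 dpn than at 28 dpn (-1.92 ± 0.23, adjusted p = 6.04e-06), without overlap in any step. CPT1A, the form typical of liver, was 2.15-fold higher at 1 dpn than at 94 dpc (adjusted p = 0.00101). SLC25A20, the carnitine carrier of the inner membrane, rose by 1.57 ± 0.14 (adjusted p = 5.24e-08). CRAT, the brightest of the 6, had geometric means of 782 at 94 dpc, 5161 at 1 dpn, 8419 at 28 dpn and 7747 at 188 dpn. Unlike CPT1B it was higher at 28 dpn than at 1 dpn (0.71 ± 0.21, adjusted p = 0.0211). That call was lost with array weights (adjusted p = 0.0513).

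Of 10 genes of fatty acid uptake, binding and activation, 3 were higher and 1 lower at 1 dpn than at 94 dpc (17.1% and 20.7% of all genes, median 0.23). FABP3, the fatty acid binding protein of muscle and heart, had 44513, 49505 and 63362 at 1 dpn, against 4244, 5968 and 6363 at 94 dpc (3.15 ± 0.21, adjusted p = 6.39e-10). It fell at both later steps. ACSL1, an acyl-CoA synthetase, was higher by 2.30 ± 0.21 at 1 dpn than at 94 dpc (adjusted p = 5.24e-08).

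Of 8 measured genes of malonyl-CoA and regulation, 3 were higher at 1 dpn than at 94 dpc (17.1% of all genes), namely PDK4, UCP3 and LPIN1. PDK4, which restrains glucose oxidation, had 2025, 6147 and 14776 at 1 dpn, against 252, 348 and 509 at 94 dpc (4.04 ± 0.44, adjusted p = 6.02e-07). The receptor PPARA, a regulator of many of these genes, had stage means under background at all 4 stages. PPARD and the coactivator PPARGC1A passed in none of the 3 steps. Peroxisomal beta oxidation had 1 of 8 genes higher at 1 dpn than at 94 dpc (ACOX2), not above the 17.1% of all genes. It had no call in either later step. Of 2 measured genes of ketone body metabolism, OXCT1, which starts the use of ketone bodies, was higher at 28 dpn than at 1 dpn (1.79 ± 0.26, adjusted p = 3.64e-05).

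Of 17 measured markers of mitochondrial mass, 15 were higher at 1 dpn than at 94 dpc (17.1% of all genes, median 1.16). At 28 dpn 2 were higher and 2 lower than at 1 dpn (13.3% and 13.4% of all genes). At 188 dpn 5 were lower than at 28 dpn (14.3% of all genes). Their summed signal was 87787 to 134853 at 94 dpc, 262306 to 359323 at 1 dpn, 267740.0 to 305236 at 28 dpn and 176929 to 250769 at 188 dpn. The summed signal of the 10 enzymes was 16918 to 21393 at 94 dpc, 64103 to 79802 at 1 dpn, 49220.1 to 64404 at 28 dpn and 30948 to 37622 at 188 dpn. Much of the lower sum at 28 dpn than at 1 dpn came from the brighter ACADVL probe set (geometric means 5612 and 17667). The second ACADVL probe set had 1414 and 1264, and 3 of the 10 genes were higher at 28 dpn. The median difference at 28 dpn against 1 dpn was 0.050 for the markers and -0.15 for the enzymes, and at 188 dpn against 28 dpn it was -0.44 for the markers and -0.73 for the enzymes. The 5 lower calls at 188 dpn became 1 with median centring and 1 without the 3 high plasma protein animals.

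Markers of some cell types differed at the same steps. Skeletal muscle markers had 7 of 12 higher and 1 lower at 1 dpn than at 94 dpc, and slow fibre genes had 6 of 8 higher and 1 lower, and fast fibre genes 4 of 6 higher. Of all genes 17.1% were higher and 20.7% lower in that step. Endothelial markers had 5 of 7 lower at 1 dpn than at 94 dpc (median -0.98). They had 4 of 7 higher at 28 dpn than at 1 dpn (0.62, 13.3% of all genes). At 188 dpn 4 of 7 were lower than at 28 dpn (-1.13, 14.3% of all genes). Their summed signal was 6954 to 12155 at 94 dpc, 3960 to 6637 at 1 dpn, 6387 to 9606 at 28 dpn and 2959 to 3969 at 188 dpn. Fibroblast and matrix markers had 3 of 5 lower at 1 dpn than at 94 dpc (median -1.36), with sums of 20376 to 61776 at 1 dpn, against 50734 to 62121 at 94 dpc. Lower calls at 1 dpn in 1 of 5 macrophage, 1 of 5 blood cell and 2 of 13 liver plasma protein markers did not exceed the 20.7% of all genes. Of 6 adipocyte markers 2 were higher, beside 17.1% of all genes. Whether the enzymes changed per mitochondrion, per muscle fibre or with the make-up of the tissue was not tested.

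**Figure D5:**
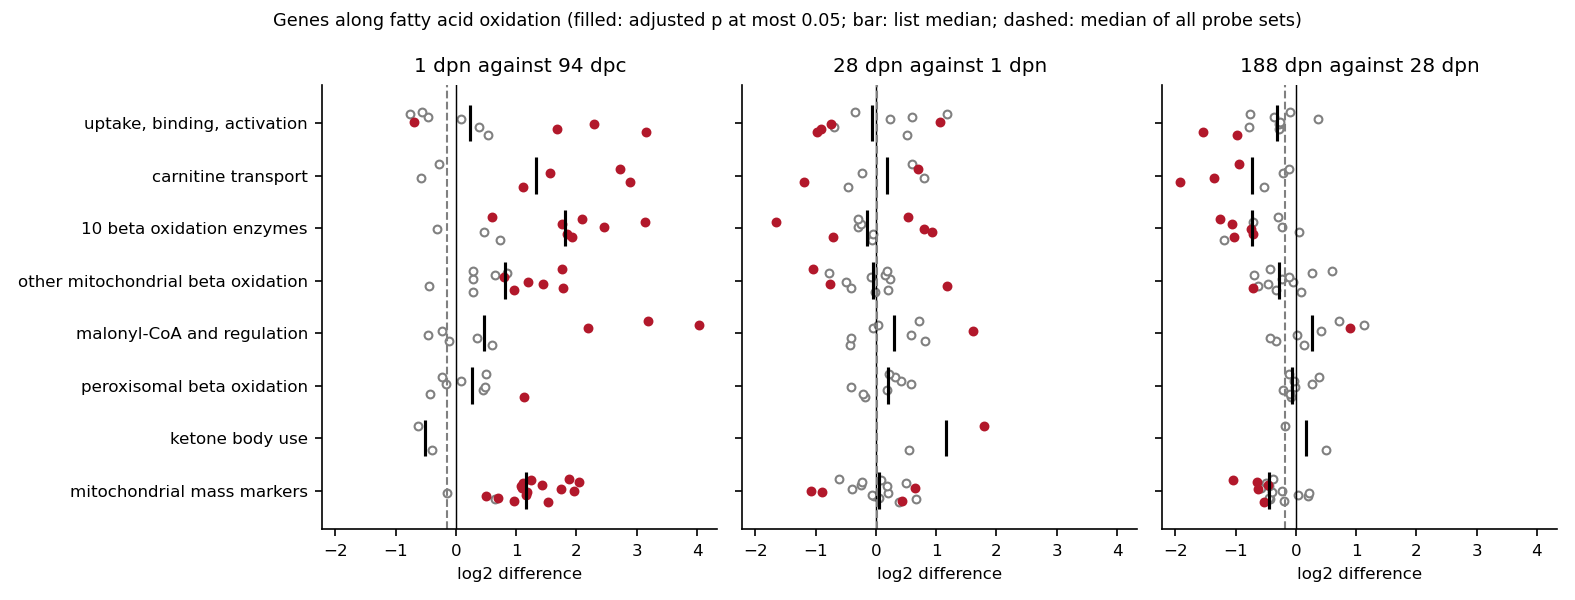
Log2 differences of single genes in 8 lists along fatty acid oxidation, for each step between neighbouring stages. Filled points passed an adjusted p of 0.05, short bars are list medians and the dashed line is the median of all probe sets. At 1 dpn the bar of the 10 enzymes is at 1.80 and that of mitochondrial mass markers at 1.16.

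The genes with the most similar course were sought over the 4 stage means, each gene less its own mean, among 4950 genes above background at every stage. Likeness was the root mean square distance (log2) from the median course of the 10 enzymes. The nearest were COQ6 at 0.0677, ACAA2 at 0.0768, HIGD1B at 0.0830, ATP5G1 at 0.0887 and SDHA at 0.0948. ACAA2 is a beta oxidation enzyme, COQ6 acts in ubiquinone synthesis, and ATP5G1 and SDHA encode subunits of ATP synthase and of succinate dehydrogenase. ETFB itself lay at 0.0867 from that median and ACADM, the farthest member, at 0.738.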

How the data were processed

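Total RNA (0.5 µg) of 24 samples was hybridised to Affymetrix Porcine arrays, 1 per sample. The deposited values are linear signal intensity, made by the authors with GCOS 1.1.1 per the submitters' processing notes. Arrays came scaled, with a mean of 498 to 499 once the outer 2% on both sides were dropped. Other settings are not given in the sources used here.

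Of 24118 probe sets 183 controls were left out. The other 23935 entered the tests as log2 signal, with no constant added and no filter. A single gene symbol was annotated for 10069 of them, several for 198 and none for 13668. Stages were compared in 6 contrasts and an F test with limma 3.58.1 (R 4.3.3, with version 1.17.8 of the data.table package), fitted to all arrays at once, which leaves 20 residual degrees of freedom. Tests were two-sided, p-values were adjusted by Benjamini-Hochberg across the 23935, and 0.05 was the threshold. The fit was checked on simulated data. As background the 95th percentile of 17 Tag controls was taken, 74.7, and 39.2% of the probe sets averaged less than this. No fold is given against a mean under it.

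The 10 members, the 16 other gene lists and the alternatives were chosen with earlier results of these data known. Genes named from a list are among the 4 largest differences past the threshold, the brightest gene, or fixed neighbours and regulators, and the text gives a choice of these. Alternatives were quantile normalization, median centring, 16 or 64 added, dropping the dimmest 30%, an adjusted p of 0.01, trend and robust settings, array weights, a fit of 2 stages only, other uses of probe sets, and arrays left out. Plots used matplotlib 3.10.9 in Python 3.11.15, with numpy 2.4.6 and pandas 2.3.3. No sequences of the members were analysed here.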

Additional observations from a re-analysis of the deposited data

Results flagged for a closer look

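In 52 groups of 6 arrays (13 member probe sets at 4 stages), 5 had a lowest or highest array far from the rest, by a gap of more than 0.625 of the range of the group on the log2 scale. Chance flags about 1 in 20 groups, and probe sets of 1 gene in the same arrays are not separate groups. All 3 probe sets of HADHB were lowest in 94 dpc animal 5, with 1929 against 2719 to 2935 in the other 5 fetuses for the brightest. For the second the same fetus had 2148 against 2929 to 3436, and for the third 2229 against 2969 to 3263. ACADM was at 1033 in 94 dpc animal 4, against 2221 to 3436 in the others. CPT2 was at 278 in 1 dpn animal 3, against 73.1 to 118.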

How the results depend on the processing

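None of the 39 called differences of member genes changed sign under any alternative run: 1335 recomputed values still passed and 69 did not. Each gene was there taken by its brightest probe set or the mean of its probe sets. Single dimmer probe sets had the other sign for ACADVL at 28 dpn against 1 dpn (0.16) and HADHB at 188 dpn against 1 dpn (0.58 in the third). Neither of these passed. The count of member genes called moved by over 1.5 times in these cases, and the cause was not tested. For 188 dpn against 94 dpc it was 4 with quantile normalization and 4 at an adjusted p of 0.01, in place of 7. For 188 dpn against 28 dpn it was 3 with median centring and 3 without the 3 high plasma protein animals, in place of 5. For 28 dpn against 1 dpn it was 3 with only the 2 stages compared, 2 at an adjusted p of 0.01 and 2 without the 3 low 5′ animals, in place of 5. With each animal left out in turn the counts were 7 to 7 for 1 dpn against 94 dpc, 4 to 5 for 28 dpn against 1 dpn, 4 to 6 for 188 dpn against 28 dpn, 4 to 7 for 188 dpn against 94 dpc, 8 to 8 for 28 dpn against 94 dpc, 6 to 8 for 188 dpn against 1 dpn and 8 to 10 for the F test.

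Under the alternative runs signs changed only in differences that had not passed, here in log2. With quantile normalization these were the third HADHB probe set at 1 dpn against 94 dpc (-0.17), ACADM at 188 dpn against 28 dpn (-0.091), HADHA at 188 dpn against 94 dpc (-0.047) and ACADVL less ACADL at 188 dpn against 28 dpn (-0.073). With median centring they were ACADL at 1 dpn against 94 dpc (0.014) and at 188 dpn against 94 dpc (0.28), ACADS at 188 dpn against 28 dpn (0.031) and CPT2 at 188 dpn against 94 dpc (0.0065). With a gene's probe sets averaged, HADHB at 28 dpn against 1 dpn was 0.57 and ACADVL less ACADL at 188 dpn against 28 dpn was -0.039, and with array weights the third HADHB probe set at 1 dpn against 94 dpc was -0.040. Without the 3 low 5′ animals, ACADL was 0.084 at 1 dpn against 94 dpc and -0.34 at 188 dpn against 1 dpn, and HADHB was 0.20 and CPT2 0.048 at 28 dpn against 1 dpn. There the second ACADVL probe set was -0.38 at 28 dpn against 1 dpn, and at 188 dpn against 1 dpn ETFA was -0.024 and the third HADHB probe set -0.34. Without the 3 high plasma protein animals, ACADM was -0.045 at 188 dpn against 28 dpn, CPT2 0.46 at 188 dpn against 94 dpc and ACADL -0.093 at 188 dpn against 1 dpn. With each animal left out, the range was -0.21 to 0.23 for the third HADHB probe set at 1 dpn against 94 dpc. At 28 dpn against 1 dpn it was -0.14 to 0.028 for HADHB, -0.19 to 0.26 for CPT2 and -0.018 to 0.28 for the second ACADVL probe set. It was -0.012 to 0.096 for ACADM and -0.18 to 0.20 for ACADVL less ACADL at 188 dpn against 28 dpn, and -0.044 to 0.24 for ACADL at 188 dpn against 1 dpn.

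The 28 called differences of pathway genes outside the 10 kept their sign in all alternatives, and 40 of their recomputed values no longer passed. Of 35 that had not passed, 17 changed sign at least once, in 41 of 1257 recomputed values, and their differences are not printed. CPT2 was under background in 10 of 24 arrays, which limits what its values show. No paired analysis was possible because each stage had its own animals. The labels carry no replicate numbers, and animal numbers follow sample order.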
